A study of Mus musculus with 10 samples.

Results

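Interferon signals are carried into the nucleus by STAT and IRF transcription factors. The 9 genes described here, Stat2, Stat3, Irf1, Irf2, Irf7, Irf8, Irf9, the kinase gene Jak2 and the inhibitor gene Socs1, were chosen by name from the 48476 genes of the series table, and all 9 were found there. RNA-seq was done on mouse embryonic fibroblasts (MEFs) of the strain CBA/CaJ X C57BL/6J, taken from embryos at E13.5. Every culture received retroviruses for Oct4, Klf4 and Sox2 (OKS), the factors that reprogram fibroblasts to pluripotent stem cells, and was kept in iCD1 medium. The OKS + FoxO6 arm also received FoxO6, a forkhead transcription factor, and the control OKS + DsRed arm received the red fluorescent protein DsRed. Each arm was sampled 5 times (days 0, 1, 3, 5 and 7), and every sampling gave 1 library, so that a single day has no replicate. The study's methods describe MEFs that carry an Oct4-GFP reporter, and the labels do not say whether the days of an arm came from separate cultures. P-values across the days therefore measure only the spread of the arm difference or of the arms between these libraries.

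In this pathway, interferons bind receptors on the cell surface that hold Janus kinases such as Jak2, which phosphorylate STAT proteins. Type I interferon assembles ISGF3, a complex of STAT proteins with Irf9 in which Stat2 is a defining subunit, and ISGF3 binds the interferon-stimulated response element (ISRE). Interferon gamma activates STAT dimers that bind the gamma-activated sequence (GAS), and Irf1 is a classical target of that route. Fibroblasts are a standard cell type for the study of both responses. Several of these genes are themselves interferon targets, so that the pathway can raise the level of its own transducers.

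The 10 libraries held between 1208379 and 2225750 expected counts (median 1601151). Foxo6 was at 762 to 1356 TPM, a level scaled for gene length and to a fixed total per library, in the 5 OKS + FoxO6 libraries, day 0 included, and at 0.61 to 2.29 TPM in the 5 OKS + DsRed libraries. All 10 fibroblast markers examined were detected, and their summed TPM was 9046 and 8619 at day 0 and 3003 and 3273 at day 7 in OKS + DsRed and OKS + FoxO6. The median of all genes differed between the arms by 0.139 or less on the log2(TPM + 1) scale, the size being greatest at day 7 (-0.139), where scaling by TMM library sizes gave -0.019.

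Promoter sequences show which members carry the elements that STAT and IRF proteins bind. RefSeq windows (GRCm38.p6) from 250 bases before to 50 bases after each gene start were searched on both strands, and all 9 members matched a window (12 windows, since Irf1, Irf8 and Irf9 had more than 1). The motifs were the GAS core TTCNNNGAA, the ISRE core GAAANNGAAA, a FoxO element GTAAACA and an NF-kappaB site GGGNNNNTCC, and a gap of N stands for any base. The GAS core was in 3 members, against 9.55% of 27025 genes with a window, and the ISRE core was in 3 members, against 3.99% of genes. No member window held the FoxO element, which 4.05% of genes held. The NF-kappaB letters as given were in 1 member (Irf2), against 21.3% of genes. Sites spelled with other letters were not searched, so a missing match does not show that a site is absent. The windows of Stat2, Irf1, Irf2 and Socs1 are printed because they hold a GAS or ISRE core (in capitals) and their RNA was measured above the floor, and that of Irf7 because it holds neither while its RNA changed most over the course. A match is a description of letters and not evidence of binding.
Stat2, chr10:128270248-128270547, plus strand: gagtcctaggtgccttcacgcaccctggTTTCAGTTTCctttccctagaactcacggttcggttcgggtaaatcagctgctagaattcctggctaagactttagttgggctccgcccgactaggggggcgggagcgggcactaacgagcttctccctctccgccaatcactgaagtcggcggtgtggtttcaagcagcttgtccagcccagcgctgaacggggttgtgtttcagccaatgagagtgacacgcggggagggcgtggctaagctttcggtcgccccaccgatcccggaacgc
Irf1, chr11:53769764-53770063, plus strand: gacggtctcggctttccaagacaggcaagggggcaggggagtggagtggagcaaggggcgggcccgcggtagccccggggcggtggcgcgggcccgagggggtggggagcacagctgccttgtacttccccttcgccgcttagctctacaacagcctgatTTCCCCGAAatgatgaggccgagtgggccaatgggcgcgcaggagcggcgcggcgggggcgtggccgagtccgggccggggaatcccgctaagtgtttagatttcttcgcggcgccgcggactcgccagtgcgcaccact
Irf2, chr8:46739495-46739794, plus strand: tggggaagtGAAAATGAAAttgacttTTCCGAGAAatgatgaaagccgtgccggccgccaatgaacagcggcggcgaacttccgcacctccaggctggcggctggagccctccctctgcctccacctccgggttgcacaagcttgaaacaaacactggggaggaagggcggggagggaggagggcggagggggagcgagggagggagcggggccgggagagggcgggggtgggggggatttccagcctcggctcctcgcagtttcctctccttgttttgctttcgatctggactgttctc
Socs1, chr16:10785487-10785786, minus strand: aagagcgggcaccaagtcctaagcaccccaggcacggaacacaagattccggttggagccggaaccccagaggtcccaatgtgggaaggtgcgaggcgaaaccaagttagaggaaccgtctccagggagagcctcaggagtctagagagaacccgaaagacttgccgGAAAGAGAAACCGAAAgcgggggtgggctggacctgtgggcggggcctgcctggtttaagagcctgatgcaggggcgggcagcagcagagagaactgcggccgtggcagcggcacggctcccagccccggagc
Irf7, chr7:141266375-141266674, minus strand: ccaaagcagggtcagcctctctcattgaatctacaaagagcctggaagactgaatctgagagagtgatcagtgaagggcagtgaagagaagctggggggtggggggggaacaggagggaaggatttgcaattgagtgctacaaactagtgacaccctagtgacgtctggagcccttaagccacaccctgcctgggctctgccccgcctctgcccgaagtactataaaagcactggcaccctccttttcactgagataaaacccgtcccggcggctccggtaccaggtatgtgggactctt
The ISRE core of Stat2 lay at -222 to -213 from the RefSeq start and the GAS core of Irf1 at -90 to -82. The Stat2 window ends at 128270547, before the start in the gene coordinates given below (128270559). Irf2 held an ISRE core at -241 to -232 and a GAS core at -224 to -216. Socs1 held 2 ISRE cores at -83 to -74 and -77 to -68, which overlap and read as a single run of capitals. Irf8 held 2 GAS cores at -171 to -163 and -153 to -145. The windows of Stat3, Irf7, Irf9 and Jak2 held none of the 4 motifs as searched. Windows follow RefSeq starts, which can differ from the gene coordinates given below. Both Irf9 windows, from 55603735 and from 55604329, lie after the start of Irf9 in those coordinates (55603571). The bases before that Irf9 start were therefore not searched.

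Over the course, 5 of 8 members tested rose in the fit of both arms, against 13.2% of all genes, and 1 stood lower in OKS + FoxO6 than in OKS + DsRed, against 7.05%. On average over both arms, Stat2, Irf1, Irf7, Irf9 and Stat3 were higher at days 3, 5 and 7 than at days 0 and 1, although Irf1 in OKS + FoxO6 was no higher in TPM at day 3 than at days 0 and 1. The rise was 1.41-fold for Stat3, 3.90-fold to 4.67-fold for Irf9, Irf1 and Stat2, and largest for Irf7, whose log2 rise was 4.31 but 2.63 without day 0 and 5.95 without day 1. Irf1 was 3.47-fold lower in OKS + FoxO6 over the 5 days. At day 3 Irf1, Irf7, Irf9, Stat2 and Socs1 were all more than 2-fold lower in the OKS + FoxO6 library. Stat3 and Irf2 were not among the lower genes on any day, and Jak2 differed little.

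**Figure D1:**
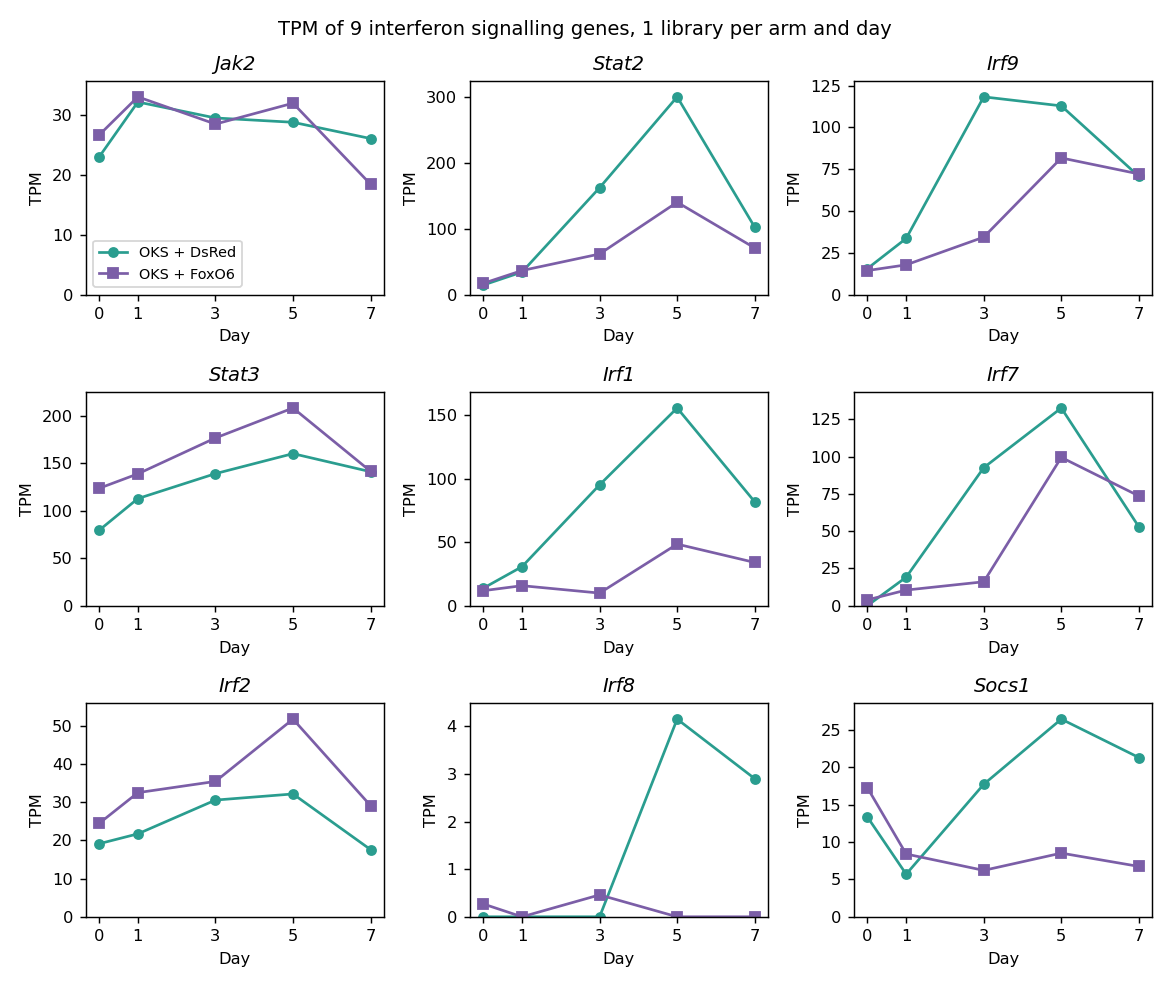
TPM (y axis, linear, from 0, own scale per gene) of the 9 members against day (x axis) in OKS + DsRed (circles) and OKS + FoxO6 (squares), with 1 library per point and no error bars. Stat2, Irf1 and Irf7 have their highest value at day 5 in both arms, and at day 3 the OKS + DsRed points of Stat2, Irf1, Irf7 and Irf9 stand well above the OKS + FoxO6 points.

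Stat2 (ENSMUSG00000040033, chr10:128270559-128292849, plus strand, GRCm38), a STAT subunit of ISGF3, was the second most abundant member. Its TPM in OKS + DsRed was 14.4, 34.1, 162, 299.8 and 102 at days 0, 1, 3, 5 and 7. In OKS + FoxO6 it was 16.9, 36.4, 61.5, 139.99 and 70.6. The arms were close at days 0 and 1 and apart at days 3 and 5. At day 3 the OKS + FoxO6 count, per library size, was 0.313 of that in OKS + DsRed (95% counting interval 0.261 to 0.374), and at day 5 it was 0.482 (0.429 to 0.541). By day 7 the ratio was 0.843 (0.712 to 0.998). Across the 5 days the log2 difference was -0.63 (SE 0.249, adjusted p = 0.122), which did not pass the test, with -0.33 (adjusted p = 0.451) without day 3 and -0.83 (adjusted p = 0.038) without day 0. The rise over the course was 2.22 on the log2 scale (SE 0.271, adjusted p = 0.00014).

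Irf9 (ENSMUSG00000002325, chr14:55603571-55610030, plus strand) supplies the DNA-binding IRF subunit of ISGF3. Its TPM was 15.5, 33.6, 118, 113 and 70.7 in OKS + DsRed and 14.3, 17.8, 34.3, 81.7 and 72.1 in OKS + FoxO6. In OKS + DsRed it was highest at day 3, whereas in OKS + FoxO6 it was highest at day 5, and the arms were level at day 7. The count ratio was 0.525 (0.340 to 0.799) at day 1, 0.259 (0.195 to 0.341) at day 3, 0.740 (0.603 to 0.909) at day 5 and 1.24 (0.982 to 1.58) at day 7. The fitted difference over the 5 days was -0.63 (SE 0.276, adjusted p = 0.160), with -0.26 (adjusted p = 0.551) without day 3 and -0.94 (adjusted p = 0.0299) without day 7, and the rise over the course was 1.96 (SE 0.298, adjusted p = 0.000608). Irf9 shares 123 bases with Rnf31 on the same strand, which had 30 to 107 counts, so reads from that stretch could be split between them.

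Stat3 (ENSMUSG00000004040, chr11:100885098-100939540, minus strand) answers mainly to the gp130 cytokines and is known for holding mouse pluripotent stem cells in their state in response to LIF. Its TPM was 79.4, 113, 139, 160.1 and 141 in OKS + DsRed and 124, 139, 177, 208 and 142 in OKS + FoxO6. Stat3 was thus higher in OKS + FoxO6 at days 0 to 5 and level at day 7 on the TPM scale. On the count scale the ratio ran from 1.15 (1.02 to 1.30) at day 7 to 1.51 (1.28 to 1.79) at day 0, and all 5 intervals lay above 1. The fitted difference was 0.31 (SE 0.110, adjusted p = 0.0815), which did not pass the test. Its rise over the course was 0.50 (SE 0.113, adjusted p = 0.00781) and lost the call without day 0 (adjusted p = 0.161) or day 5 (adjusted p = 0.0520).

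Irf1 (ENSMUSG00000018899, chr11:53770014-53778374, plus strand), a transcriptional activator of antiviral and antigen-presentation genes, had the largest fitted 5-day difference among the 8 members tested. Its TPM in OKS + DsRed was 13.7, 30.7, 95.01, 155 and 81.7. In OKS + FoxO6 it was 11.8, 15.7, 9.89, 48.4 and 34.0, lower on every day. At day 3 there were 133 counts in OKS + DsRed and 20 in OKS + FoxO6, which made OKS + DsRed 9.03-fold higher (5.62 to 15.3). The OKS + FoxO6 libraries of days 0 and 3 both held 20 counts, while the OKS + DsRed library of day 3 stood 6.93-fold above its day 0 in TPM. The count ratio was then 0.263 (0.201 to 0.340) at day 5 and 0.338 (0.235 to 0.476) at day 7. The difference over the 5 days was -1.79 (SE 0.291, adjusted p = 0.0027), and it passed the test without each day in turn (-1.42 to -1.99). In a fit with no day factor the difference was -1.90 and the adjusted p 0.203. The rise over the course was 2.14 (SE 0.321, adjusted p = 0.000558).

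Irf7 (ENSMUSG00000025498, chr7:141262706-141266481, minus strand), the factor that amplifies type I interferon production, went from the limit of detection to a well-measured gene. Its TPM was 0, 19.1, 92.6, 133 and 52.9 in OKS + DsRed and 3.88, 10.5, 16.02, 99.5 and 73.6 in OKS + FoxO6. The day 0 values came from 0 and 3 counts, and no fold is given for that day. OKS + FoxO6 was lower at day 3, with a count ratio of 0.168 (0.105 to 0.259), and at day 5, with 0.697 (0.561 to 0.865), and higher at day 7, with 1.70 (1.28 to 2.27). The fitted difference was -0.61 (SE 0.420, adjusted p = 0.396), with -0.01 (adjusted p = 0.994) without day 3 and -1.17 (adjusted p = 0.0577) without day 7. Its rise of 4.31 over the course (SE 0.567, adjusted p = 0.000239) was the largest of the 8 members tested. It rested in size on the early days, with 2.63 (adjusted p = 0.0153) without day 0, where OKS + DsRed had 0 counts, and 5.95 (adjusted p = 0.00207) without day 1.

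Irf2 (ENSMUSG00000031627, chr8:46739732-46847458, plus strand) antagonises Irf1 at shared sites. Its TPM was 19.1, 21.7, 30.5, 32.1 and 17.6 in OKS + DsRed and 24.4, 32.5, 35.4, 51.7 and 29.1 in OKS + FoxO6. On the TPM scale OKS + FoxO6 was higher on all 5 days, never by 2-fold, whereas per library size the day 0 ratio was 0.971 (0.606 to 1.58). The ratio was 1.61 (1.15 to 2.27) at day 5 and 1.79 (1.19 to 2.71) at day 7. Neither the difference of 0.52 (SE 0.173, adjusted p = 0.0697, or 0.0347 without day 0) nor the rise of 0.41 (SE 0.179, adjusted p = 0.124) passed the test.

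Irf8 (ENSMUSG00000041515, chr8:120736358-120756694, plus strand), known from myeloid cells, was at the floor. Its counts were 0, 0, 0, 2 and 7 in OKS + DsRed and 1, 0, 1, 0 and 0 in OKS + FoxO6. At day 7 it was at least 1.96-fold higher in OKS + DsRed, taking 3 counts per library as the floor. It did not pass the filter on low counts and was not tested. Irf8 lies within Gm20388 on the same strand, which had up to 161 counts in a library, so its values are uncertain.

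Socs1 (ENSMUSG00000038037, chr16:10782240-10785536, minus strand), an inhibitor of Janus kinases that interferon induces, was low throughout. Its TPM was 13.4, 5.70, 17.7, 26.5 and 21.3 in OKS + DsRed and 17.3, 8.40, 6.21, 8.52 and 6.74 in OKS + FoxO6. At days 3, 5 and 7 the OKS + FoxO6 values all lay below the OKS + DsRed values, and at days 0 and 1 they lay above. The count ratios of those late days were 0.344 (0.119 to 0.896), 0.310 (0.130 to 0.687) and 0.348 (0.127 to 0.833). These ratios rested on 7 to 24 counts per library. The fitted difference over the 5 days was -0.86 (SE 0.400, adjusted p = 0.191).

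Jak2 (ENSMUSG00000024789, chr19:29251828-29313080, plus strand), a kinase of the interferon gamma receptor, varied least relative to its mean among the 8 members above the floor. Its TPM was 23.0, 32.2, 29.5, 28.8 and 26.1 in OKS + DsRed and 26.7, 33.0, 28.5, 32.0 and 18.4 in OKS + FoxO6. The interval of the count ratio held 1 on every day, from 0.777 (0.581 to 1.03) at day 7 to 1.07 (0.826 to 1.39) at day 5. The fitted difference was -0.05 (SE 0.129, adjusted p = 0.863), which does not show that the arms are alike.

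**Figure D2:**
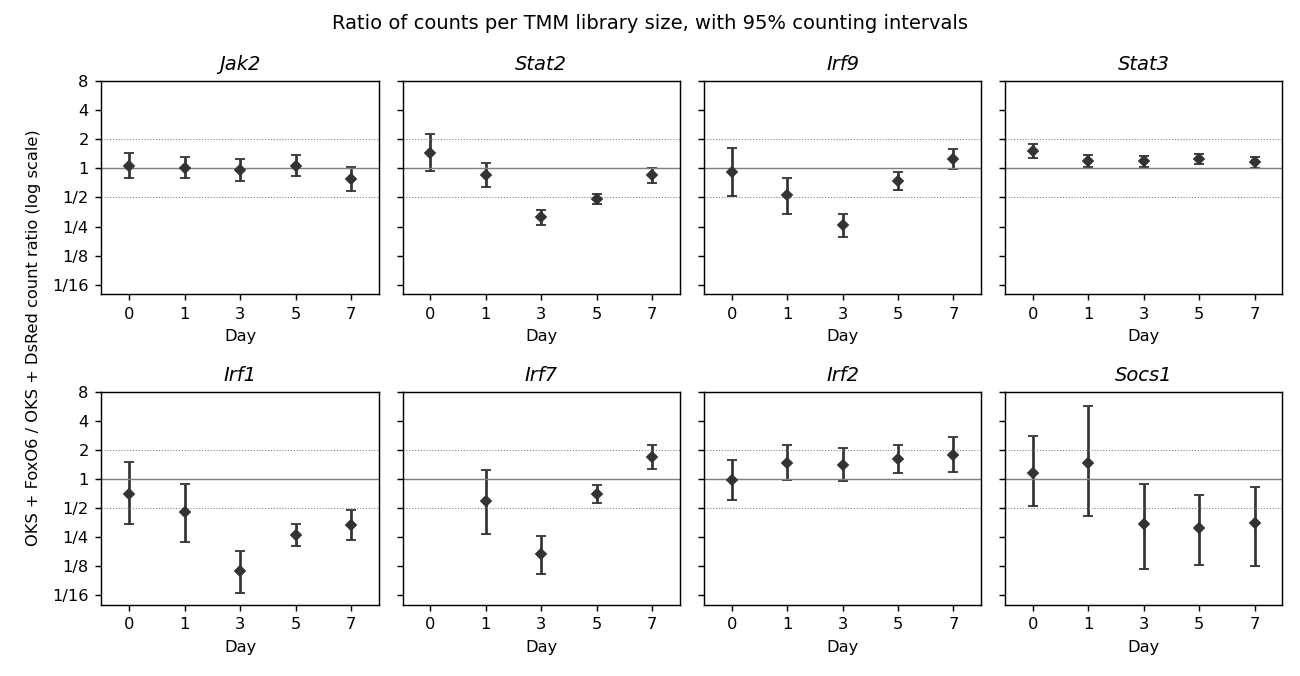
Ratio of OKS + FoxO6 to OKS + DsRed counts per TMM library size (y axis, log scale) by day (x axis) for the 8 members above the floor, with 95% Clopper-Pearson intervals that cover counting error only. Solid lines mark a ratio of 1 and dotted lines a 2-fold difference. Irf1 lies below 1 on every day, with an interval that holds 1 at day 0, while Irf7 moves from 0.168 at day 3 to 1.70 at day 7. Irf7 has no point at day 0.

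Past a 2-fold difference in log2(TPM + 1), at day 0 no member was lower and 1 was higher, namely Irf7 on 3 counts, against 6.41% and 10.6% of the 15011 genes whose mean TPM reached 1. At day 1 no member passed in either direction, against 9.43% lower and 8.1% higher of all genes. At day 3, 5 of 8 members were lower against 11.8% of genes, and none was higher against 8.21%. At day 5, 3 of 8 (Stat2, Irf1 and Socs1) were lower against 11.4%, and none was higher against 10.3%. At day 7, 2 of 8 (Irf1 and Socs1) were lower against 16.5%, and none was higher against 8.3%. The members' median difference was 0.282, 0.064, -1.38, -0.436 and -0.237 over the days, against 0.087, 0.0, 0.0, 0.003 and -0.139 for all genes. A single day holds no replicate, so these counts compare libraries.

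In the edgeR fit of the 5-day difference, 1 of 8 members tested (Irf1) was lower, against 7.05% of 11028 genes, and 0 were higher, against 6.86%. At an unadjusted p under 0.05, 3 were lower and 2 higher, against 14.4% and 13.5% of genes, and DESeq2 called Irf1 alone. For the course of both arms, 5 of 8 members were higher, against 13.2% of genes, and 0 were lower, against 11.8%. At an unadjusted p under 0.05, 6 were higher (Irf2 in addition) and 0 lower, against 19.2% and 17.4% of genes, and DESeq2 called the same 5 higher and 0 lower. Whether the arm difference at days 3, 5 and 7 departed from that at days 0 and 1 was tested as a term of its own. No member and no gene was called by edgeR (0.0% of 11028), 986 genes (8.94%) had an unadjusted p under 0.05, and DESeq2 called 34 genes and no member. Of the members, 3 had an unadjusted p under 0.05, with Socs1 at -1.91 (SE 0.663, adjusted p = 0.427), Irf1 at -1.32 (SE 0.534, adjusted p = 0.507) and Stat2 at -1.08 (SE 0.409, adjusted p = 0.465). That the arms part after day 1 is therefore not shown beyond the spread between days. On the opposite strand, which counts without strand cannot separate, Irf1 shares 907 bases with Gm17334 (at most 2 counts in a library), Stat3 shares 72 with Stat5a (22 to 50 counts) and Irf7 shares 45 with Phrf1 (136 to 279 counts), and Irf2 overlaps 3 genes annotated as antisense or TEC.

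**Figure D3:**
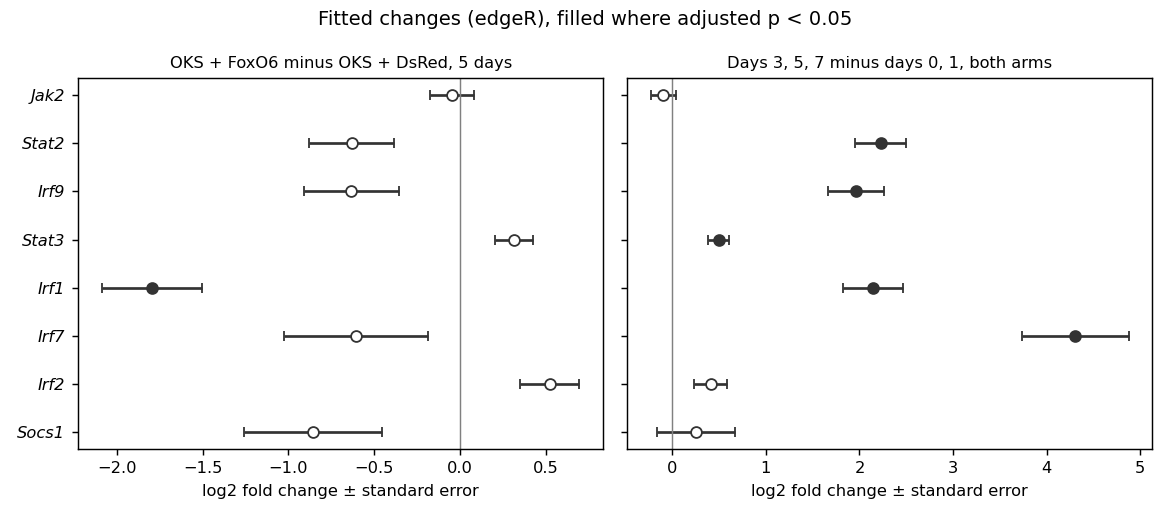
Fitted log2 fold changes (x axis) with standard errors for the 8 members tested, OKS + FoxO6 minus OKS + DsRed over 5 days (left) and days 3, 5 and 7 minus days 0 and 1 in both arms (right). Filled points passed an adjusted p of 0.05 in edgeR. Irf1 is the 1 filled point on the left, at -1.79, and 5 points are filled on the right.

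Ordered by mean TPM over the 10 libraries, the members ran Stat3 142 ± 35.0 (SD, n = 10), Stat2 93.8 ± 88.2, Irf9 57.1 ± 39.5, Irf7 50.1 ± 47.1, Irf1 49.6 ± 47.6, Irf2 29.4 ± 9.90, Jak2 27.8 ± 4.52, Socs1 13.2 ± 7.23 and Irf8 0.778 ± 1.49. These SDs span days and arms. Of the neighbours in this order, Jak2 and Socs1, and Socs1 and Irf8, differed by more than both of their SDs, and the others did not. Stat2 exceeded Stat3 in OKS + DsRed at days 3 and 5, while Stat3 was the most abundant member in every OKS + FoxO6 library.

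Across the 10 libraries, log2(TPM + 1) of Stat2, Irf7 and Irf9 moved closely together, with Pearson's r of 0.944 for Stat2 and Irf9, 0.927 for Irf7 and Irf9 and 0.926 for Stat2 and Irf7. Irf1 had an r of 0.884 with Irf9 and 0.856 with Stat2. Socs1 had an r of 0.328 with Stat2 and 0.56 with Irf1, and Jak2 an r of -0.01 with Irf9 and 0.358 with Irf2. The libraries share their days and arms, so these values describe a common course. Among 11490 genes whose mean TPM reached 5, the genes most like Stat2 were Parp14 (0.989), Gbp7 (0.982) and Gm11837 (0.982). For Irf9 they were Slc7a3 (0.983), Zbp1 (0.977) and Tgtp1 (0.974), and for Irf7 Ehf (0.975), Taf1b (0.972) and Trim21 (0.972). Srgap3 (0.970) and Rnf213 (0.960) were close to Irf1. For Stat3 they were Etnk1 (0.964), Dhx40 (0.963) and Fam49a (0.962), and for Irf2 Slc38a10 (0.969) and Clk1 (0.926). Suv39h2 (0.977), Mphosph10 (0.917) and Slc30a1 (0.904) were closest to Socs1, and Pbrm1 (0.963), Fancm (0.958) and Lnpep (0.949) to Jak2.

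Upstream of the members, the interferons themselves were barely seen. Of 11 interferon ligand genes, 9 were at 0 in every library, and the other 2, Ifng and Ifnz, were each above 0 in a single library (0.90 TPM for Ifng in OKS + DsRed at day 7 and 1.75 TPM for Ifnz in OKS + FoxO6 at day 0). At these depths a count of 0 allows up to 3 counts in a library. Of 6 receptor genes, 5 were tested and 0 were called by edgeR for the arm difference or the course. At an unadjusted p under 0.05 the counts were 0 and 3, against 27.9% and 36.6% of all genes in either direction, and DESeq2 called 0. Of the other Janus kinases, Jak3 rose over the course by 1.56 (adjusted p = 0.00023) and Jak1 fell by 0.52 (adjusted p = 0.00999). Over all genes 13.2% rose and 11.8% fell. For the arm difference 0 of 3 were called, with 2 at an unadjusted p under 0.05 (27.9% of all genes) and 0 in DESeq2. Among 3 other STAT genes tested, Stat6, the factor of interleukin-4 signalling, was higher in OKS + FoxO6 by 0.42 (SE 0.116, adjusted p = 0.0375). Of all genes 6.86% were called higher, and DESeq2 did not make the Stat6 call. None of 4 other IRF genes and IRF2 binding proteins tested was called by edgeR for the arm difference, with 1 at an unadjusted p under 0.05 (27.9% of all genes), and DESeq2 called Irf2bpl lower.

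Of 15 other inhibitors of the pathway tested, 1 was higher and 0 were lower in OKS + FoxO6, against 6.86% and 7.05% of all genes. Socs3, which restrains gp130 signalling, was higher in OKS + FoxO6 by 0.89 (SE 0.115, adjusted p = 0.000698), with TPM of 46.0, 65.2, 114, 134 and 98.7 in OKS + DsRed and 83.5, 127, 230.4, 227 and 186 in OKS + FoxO6. Socs3 was thus higher in OKS + FoxO6 on all 5 days. Over the course 4 of the 15 rose (Socs2, Socs3, Pias3 and Usp18) and 2 fell (Socs5 and Ptpn11), against 13.2% and 11.8% of all genes. Pias3 (adjusted p = 0.0487) was not called by DESeq2, which called the other 5. Usp18, an interferon-induced brake on the type I receptor, rose by 3.87 (adjusted p = 0.00119).

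Downstream, interferon targets were counted against all genes, of which 13.2% were higher and 11.8% lower over the course, and 7.05% lower and 6.86% higher in OKS + FoxO6. Of 16 type I targets tested, 15 rose over the course and 0 fell, and 4 were lower in OKS + FoxO6 while 0 were higher. The lower ones were Oasl2 (-1.94, adjusted p = 0.0159), Ifi44 (-1.83, adjusted p = 0.0194), Parp14 (-1.30, adjusted p = 0.0158) and Dtx3l (-1.01, adjusted p = 0.0114). All 14 interferon gamma targets tested rose over the course, and 9 were lower in OKS + FoxO6 while 0 were higher. Psmb9 (-3.27, adjusted p = 0.000934) and Psmb8 (-2.98, adjusted p = 0.00144), subunits of the immunoproteasome, were among them, with Nlrc5 (-3.04, adjusted p = 0.00352), the activator of MHC class I genes, and Igtp (-2.92, adjusted p = 0.000212), an interferon-induced GTPase. The others were Tap1 (-2.21), Gbp7 (-1.91), Irgm2 (-1.76), Gbp2 (-1.57) and Irgm1 (-1.38). DESeq2 called the same 4 type I targets and Isg15 lower. Of the gamma targets it called Gbp7, Igtp, Irgm1, Psmb9 and Tap1, with Tap2 in addition, and did not call Psmb8, Nlrc5, Gbp2 or Irgm2. At day 7 the median difference was -0.031 for the type I targets and -1.491 for the gamma targets.

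**Figure D4:**
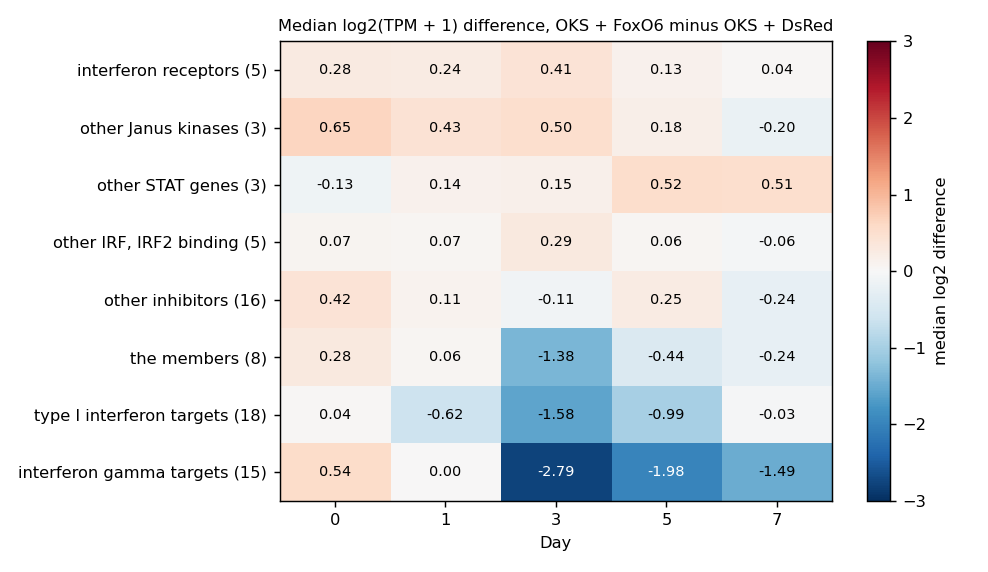
Median difference in log2(TPM + 1), OKS + FoxO6 minus OKS + DsRed (colour and printed value), for the members and 7 pathway lists (rows, number of genes whose mean TPM reached 1 in brackets) by day (columns), from single libraries and with no test. At day 3 the medians of the members (-1.38), the type I targets (-1.58) and the gamma targets (-2.79) are the lowest of the 8 rows plotted, while the receptors are at 0.41.

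In bulk RNA, fewer cells of a type and less RNA per cell cannot be told apart. Markers of other cells were therefore counted. Of 14 macrophage markers, 4 reached a mean TPM of 1, and their sum over the list ranged from 19.5 to 94.3 TPM in OKS + DsRed and from 31.3 to 54.9 in OKS + FoxO6. C1qc was at 0 in every library, and Ptprc, Adgre1 and Csf1r stayed at or below 0.60 TPM. Other low markers reached more in single libraries, among them Itgam (4.36 TPM), Aif1 (3.29), Cd14 (3.07) and Spi1 (2.8). Itgam changed direction between days. It had 1.26 TPM with DsRed against 0.28 with FoxO6 at day 3, but 0.45 against 4.36 at day 7. Each of these Itgam values rested on 1 to 4 counts. At day 3 the sum was 94.3 TPM in OKS + DsRed and 35.0 in OKS + FoxO6, of which Cd68, a lysosomal protein gene, gave 52.6 and 23.7 TPM and Laptm5 gave 34.0 and 10.1 TPM. Laptm5 moved with the arms, with a log2 difference of -1.11 (adjusted p = 0.0173), and with the course (2.46, adjusted p = 0.000144). Of 8 lymphocyte markers, 3 were at 0 in every library. The sum ranged from 0 to 32.2 TPM in OKS + DsRed and from 0 to 30.98 in OKS + FoxO6, with the late values from Cd2 and Cd3g. These went opposite ways at day 7, with Cd2 at 23.56 and 11.25 TPM and Cd3g at 6.42 and 19.73 TPM in OKS + DsRed and OKS + FoxO6. The 7 endothelial markers summed to 22.0 to 54.3 TPM in OKS + DsRed and 33.5 to 104 in OKS + FoxO6, mostly from Tek, which was higher in OKS + FoxO6 (0.96, adjusted p = 0.0012). Fibroblast markers fell over the course in 8 of 10 cases and rose in 1, against 11.8% and 13.2% of all genes. DESeq2 called 8 lower and 0 higher. Between the arms Dcn (1.15, adjusted p = 0.00859) and Postn (0.69, adjusted p = 0.0213) were higher in OKS + FoxO6, against 6.86% of all genes. Col3a1 (-0.64, adjusted p = 0.0197) was lower, against 7.05%, and DESeq2 called these genes and Col1a1. The part of these shifts in the values of the members was not tested.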

How the data were processed

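RNA-seq was done on 10 libraries, 1 for each of 2 arms on each of 5 days, and samples were grouped by their labels. Per the study's methods and the submitters' processing notes, the authors aligned reads with Bowtie2 and RSEM to GENCODE M13 (build mm10), and deposited expected counts and TPM per gene. The deposited expected counts are RSEM estimates with no normalization, and the deposited TPM values are scaled by the authors for length and depth within each library. The kits named are not stated to keep strand.

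Expected counts were rounded and fitted with edgeR 4.0.16 in R 4.3.3 (quasi-likelihood test, TMM, filterByExpr, Benjamini-Hochberg over 11028 genes, threshold 0.05), with day and arm as factors, leaving 4 residual degrees of freedom (3 for the late against early arm difference). Differences on single days used log2(TPM + 1), a pseudocount of 1 that understates changes of low genes, and a 2-fold limit among the 15011 genes whose mean TPM reached 1. Count ratios have exact Clopper-Pearson intervals of 95% on TMM library sizes, for counting error only. Depth was 1208379 to 2225750 counts, and 3 counts were the floor. DESeq2 1.42.0, other scalings, no filter, no day factor, a linear day term and leaving out each day were alternatives. Python 3.11.15 with pandas 2.3.3, numpy 2.4.6, scipy 1.17.1 and matplotlib 3.10.9 did the rest.

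The members, gene lists and tests were chosen with earlier results of these data known. Text names the 9 members, list genes past a threshold or largest in their list, and for each member the 3 genes of highest correlation, of which some are not reported here. Gene coordinates are from GENCODE M21 (GRCm38).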

Additional observations from a re-analysis of the deposited data

Results flagged for a closer look

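The difference between the arms in Irf7 turned from day to day. The ratio of OKS + FoxO6 to OKS + DsRed counts per library size was 0.168 (95% counting interval 0.105 to 0.259) at day 3, 0.697 (0.561 to 0.865) at day 5 and 1.70 (1.28 to 2.27) at day 7, so that the single OKS + FoxO6 library was lower on the first of these days and higher on the last. The intervals cover counting error only. The turn from day 3 to day 7 has 1 library per arm and day and was not tested by itself. In edgeR fits of all 5 days, the Irf7 difference changed by 0.40 per day in a linear term (adjusted p = 0.196). The late against early term was -0.20 (adjusted p = 0.97), and neither term passed.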

How the results depend on the processing

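Only 1 library stands for each arm and day, Socs1 rests on 5 to 24 counts per library, and a fit over 5 days reads the change of the arm difference between days as its error. The day factor pairs the arms by day, and no further pairing by replicate number was possible because each group holds 1 library. TPM and counts per library size differ for some members (at day 1 Irf1 passed 2-fold on log2 CPM, making 1 member lower against 0).

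The 5-day difference called 1535 genes, 169 with no day factor, and 655 (without day 5) to 1545 (without day 0) when a day was left out, with 710 without day 3. It called 1 member, 3 (Irf1, Irf9 and Stat2) with no filter on low counts, 0 with no day factor, and 1 to 3 with a day left out. The 3 were Irf1, Irf2 and Stat2 without day 0, and Irf1 and Irf9 passed without day 7. The late against early arm difference called 0 genes, 246 with no filter, 34 in DESeq2, 213 with a difference linear in day, and 0 to 52 with a day left out (52 without day 3). With no filter it called 1 member, Stat2. The linear term gave 0.40 per day (log2) for Irf7 (adjusted p = 0.196) and 0.17 for Irf9 (adjusted p = 0.376), opposite to the late against early sign. With a day left out, that difference ran from -4.97 to 0.55 for Irf7, from -0.53 to 0.53 for Irf9 and from -0.36 to 0.0049 for Stat3. The course called 2753 genes, and 1394 (without day 0) to 2825 with a day left out. With a day left out the course of Socs1 ran from -0.47 to 0.41 and that of Jak2 from -0.25 to 0.019, and the 5-day difference of Jak2 from -0.078 to 0.027. Irf2 passed for the course without day 7 (adjusted p = 0.0401). Socs1 was not tested without day 0, since it missed the filter. The cause of these changes was not tested. Of the values of single members under these alternatives, 262 kept their direction and side of the threshold or, for the untested single days, moved by less than the counting interval. On log2 CPM, Stat2 at days 3 and 7 and Stat3 at day 7 moved by more. Irf8 at days 0, 3, 5 and 7 and Irf7 at day 0, which have no interval, changed with the pseudocount and the scale.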

Other observations

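The gp130 and LIF branch acts through Stat3. Of 7 of its genes tested, 1 was called higher and 0 lower by edgeR for the 5-day difference, against 6.86% and 7.05% of all genes. Lifr, the LIF receptor, was at 4.69, 5.29, 5.46, 16.8 and 8.57 TPM in OKS + DsRed and 14.95, 19.8, 26.8, 22.9 and 23.9 TPM in OKS + FoxO6 at days 0, 1, 3, 5 and 7. It was higher in OKS + FoxO6 on all 5 days, by 1.43 on the log2 scale (SE 0.231, adjusted p = 0.0027). Over the course, in which 13.2% of all genes were higher and 11.8% lower, 2 genes rose, Lifr and Il6ra (0.99, adjusted p = 0.00201), and 1 fell, Clcf1 (-1.55, adjusted p = 0.0015).

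Of 10 STAT3 target genes tested, 3 were higher in OKS + FoxO6 and 0 were lower, against 6.86% and 7.05% of all genes. These were Socs3 (0.89, adjusted p = 0.000698), Junb (0.84, adjusted p = 0.00685) and Fos (0.96, adjusted p = 0.0224), and all of them answer to many other signals as well. Junb was at 65.8 to 101 TPM in the 5 OKS + DsRed libraries. In the 5 OKS + FoxO6 libraries Junb was at 107 to 195 TPM, and at day 7 the arms were close (101 and 107 TPM). DESeq2 called the same 3 genes. The median log2 difference over the 10 targets was 0.413, against -0.016 over all genes tested.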
